A study of Mus musculus with 24 samples.

Results

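The 10 genes described here, which glucocorticoids induce in many cells, were measured by RNA sequencing of mouse brain: Fkbp5, Tsc22d3, Sgk1, Zbtb16, Hif3a, Map3k6, Sult1a1, Ddit4, Klf9 and Errfi1. They are 10 of the 50686 genes counted, and they were chosen with their measured difference between the genotypes at day 20 already known, so their day 20 values are given as a description, and counts past a threshold that use those libraries support nothing. At day 20 9 of the 10 lay higher in every knockout library than in any wild-type library, as did 9.79% of all genes tested. For those 9 the fitted differences ran from 1.25-fold (Errfi1) to 6.57-fold (Map3k6). At day 10 none of the 10 passed the test between the genotypes, beside 4.99% of all genes. The levels moved with age in the wild type too, where 7 of the 10 were higher at day 20 than at day 10, as were 25.5% of all genes. Fkbp5, Ddit4 and Klf9 did not pass in that comparison.

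The knockout mice were labelled Pank1-/-Syn-Pank2-/- (dKO from here on) and the controls wild type (WT), all on C57BL/6. Pank1 and Pank2 encode pantothenate kinases, which start the synthesis of coenzyme A; what Syn stands for, which exons were removed and whether the WT mice were littermates are not stated in the labels. The tissue, labelled as back left brain, was taken at day 10 or day 20 from females and males, with 3 libraries for each combination of genotype, sex and day. The labels give no treatment and no hormone level, and nothing in them states that libraries are from different animals, so each p-value reflects only the variation among these libraries, which may be technical. In whole tissue, fewer cells of a type and less RNA per cell cannot be told apart.

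The glucocorticoid receptor, encoded by Nr3c1, waits in the cytoplasm in a complex with heat shock proteins and cochaperones. Once corticosterone binds it, it enters the nucleus and binds DNA at palindromes of a short motif, the glucocorticoid response element, from which it raises the transcription of a set of genes found again and again in different tissues. Several products of these genes limit the hormone's own action or turn the cell towards saving energy, and in rodents the first weeks after birth include a period when the adrenal response to stress is muted.

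Of the 24 libraries, 23 held 9.19 to 44.7 M gene counts (M, mega). Before scaling, 1 count in them equalled 0.0224 to 0.109 counts per 1 M gene counts. Levels are given in CPM (counts per 1 M gene counts, scaled by TMM factors). Replicate 3 of the dKO males at day 10 had a total of 45964 gene counts, with 25 counts over the 10 genes, and was left out, so that dKO at day 10 has 5 libraries and every other genotype and day has 6. Pank1 stood at 8.13 ± 0.67 CPM in dKO (SD, n = 5) against 22.7 ± 1.64 CPM in WT (SD, n = 6) at day 10, and at 7.49 ± 0.46 against 22.7 ± 2.34 CPM (SD, n = 6 each) at day 20. Pank2 stood at 49.6 ± 3.02 against 52.5 ± 3.42 CPM at day 10 and at 42.0 ± 3.16 against 56.5 ± 3.32 CPM at day 20; counts over a whole gene do not show which exons the RNA held. The sex of all 23 libraries matched its label. In the 22 pairs of libraries of the same genotype, sex and day, none was a copy of the other, and pairs across groups were not compared. In markers of brain region dKO male replicate 2 of day 10 stood apart from the other libraries of its group, and its values are given with the cell type markers.

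The sequence just upstream of the genes was read for the receptor's motif. RefSeq on GRCm38.p6 gave 17 windows for 9 of the 10 genes, each of 300 bases from 250 before to 50 after a start site; Zbtb16 is named only. The 15-letter palindrome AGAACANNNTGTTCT was found in 1 of the 17 windows, the fifth of 6 start sites of Sgk1, against 3 of 32851 windows of all genes (0.00913%). A looser 13-letter palindrome, GNACANNNTGTNC, was found in that window and in the window of Map3k6, against 0.475% of all windows. The 6-letter motif AGAACA, searched on both strands and counted also where it forms part of a palindrome, was found in 5 of the 17 windows (Tsc22d3, Sgk1 and Sult1a1), against 19.0% of all windows. The stretches below are shown because they hold these matches. They are written 5′ to 3′ on the strand of the gene, with the matched letters in capitals.
Sgk1, start site 5, chr10:21993640-21993755, + strand: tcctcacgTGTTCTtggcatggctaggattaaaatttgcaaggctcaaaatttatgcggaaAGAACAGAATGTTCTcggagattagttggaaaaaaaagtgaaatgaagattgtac
Map3k6, chr4:133240597-133240689, + strand: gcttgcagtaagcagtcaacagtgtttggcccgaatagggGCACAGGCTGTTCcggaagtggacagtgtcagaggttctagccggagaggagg
Tsc22d3, start site 3, chrX:140600662-140600747, - strand: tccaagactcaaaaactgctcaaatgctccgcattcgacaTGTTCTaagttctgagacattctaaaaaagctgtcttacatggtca
Sult1a1, chr7:126676419-126676492, - strand: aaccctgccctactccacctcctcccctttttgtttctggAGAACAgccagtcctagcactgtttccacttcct

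The palindrome of Sgk1 runs from 189 to 175 bases before that start site (chr10:21993701-21993715) and reads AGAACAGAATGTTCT, both arms complete; a further copy of the 6-letter motif lies at its upstream side, from 242 to 237 bases before the start. The match of Map3k6 runs from 181 to 169 bases before the start and holds neither arm of the 15-letter palindrome in full. The single motif of Tsc22d3 lies 185 to 180 bases before the third start site, and that of Sult1a1 printed above 34 to 29 bases before the start. Start sites are numbered by rising chromosome position, so on the - strand the third of Tsc22d3 is its most upstream. A further 6-letter match of Sult1a1, not printed, lies 212 to 207 bases before the start. A match is a run of letters and not a measured binding site, and the counts over whole genes do not show which start site was used. The windows of Fkbp5, Hif3a, Ddit4, Klf9 and Errfi1 held none of the 3 motifs, which says only that these letters are not in these windows; sites of the receptor are also known far from start sites, in introns and between genes.

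**Figure D1:**
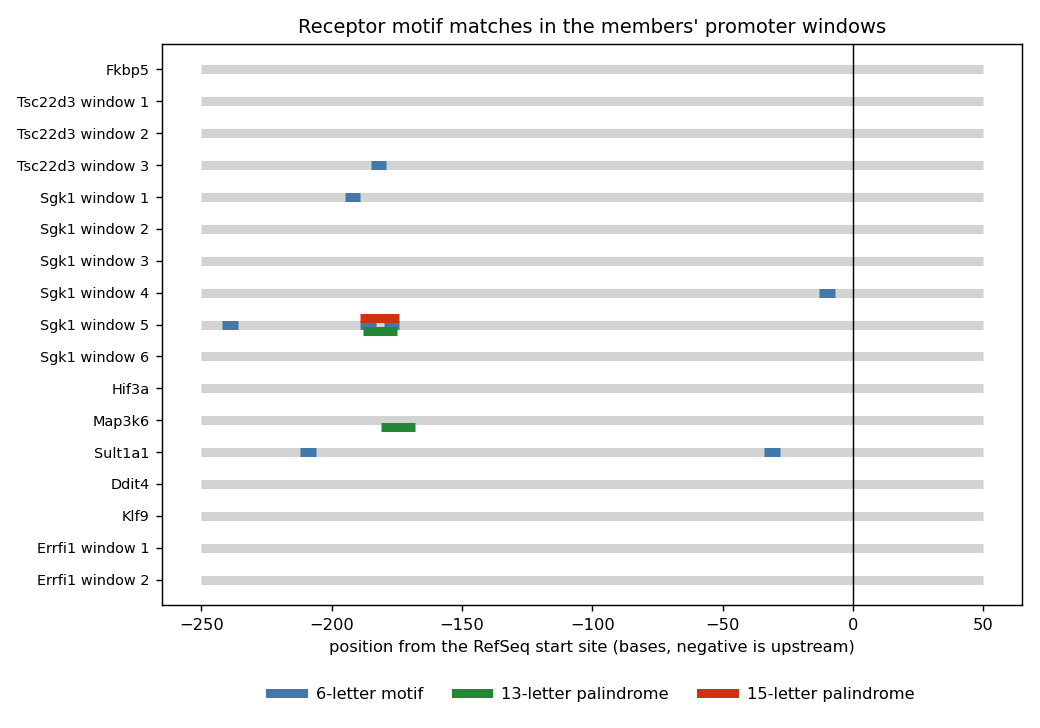
Matches to the receptor's motif in the 17 RefSeq promoter windows of 9 genes (grey bars, 300 bases each), by distance in bases from the start site (vertical line). Blue marks the 6-letter motif, green the 13-letter and red the 15-letter palindrome; only the fifth window of Sgk1 holds all 3.

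Fkbp5 (chr17:28399094-28517527, - strand, GRCm38) encodes a cochaperone that joins the receptor's complex and lowers its affinity for the hormone, and its transcript is widely used as a readout of receptor activity. At day 20 it measured 107, 72.1 and 73.3 CPM in the dKO females and 106, 101 and 114 CPM in the dKO males. The WT libraries of that day ranged from 18.4 to 23.2 CPM with a median of 20.0 CPM. The lowest dKO library stood at 3.11 times the highest WT library, and the fitted difference was 2.24 ± 0.10 (log2 dKO over WT, standard error), 4.72-fold. At day 10 the dKO libraries measured 23.2, 29.0 and 29.9 CPM in females and 20.1 and 23.0 CPM in males, and WT ranged from 17.3 to 23.6 CPM with a median of 21.5 CPM. Those groups overlapped, and the difference of 0.22 ± 0.11 did not pass (edgeR's quasi-likelihood test, adjusted p = 0.233). WT levels differed with age by less than their spread, at 21.1 ± 2.45 CPM at day 10 and 20.2 ± 1.64 CPM at day 20 (SD, n = 6 each), so the level at day 20 set dKO apart from the 3 other groups.

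Tsc22d3 (chrX:140539528-140600659, - strand) encodes GILZ, a leucine zipper protein through which glucocorticoids restrain inflammatory transcription. It measured 201, 143 and 134 CPM in dKO females and 188, 189 and 179 CPM in dKO males at day 20. WT ranged from 104 to 129 CPM with a median of 115 CPM. The groups did not overlap, though the lowest dKO library stood at only 1.04 times the highest WT library, and the fitted difference was 0.57 ± 0.10, 1.48-fold. At day 10 dKO ranged from 51.6 to 69.1 CPM and WT from 53.7 to 80.6 CPM, with a difference of -0.0026 ± 0.11 (edgeR, adjusted p = 0.992). Unlike Fkbp5, Tsc22d3 was higher in WT at day 20 than at day 10, by 0.92 ± 0.10. The gene lies on the X chromosome, and WT males and females differed by -0.0043 ± 0.10 (edgeR, adjusted p = 1).

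Zbtb16 (chr9:48654297-48836222, - strand) encodes PLZF, a zinc finger repressor of transcription. At day 20 it measured 78.1, 50.1 and 63.6 CPM in dKO females and 81.8, 82.0 and 85.0 CPM in dKO males, and WT ranged from 22.7 to 33.3 CPM with a median of 23.99 CPM. All 6 dKO libraries lay above the highest WT library, and the fitted difference was 1.50 ± 0.13, 2.83-fold. The gene also stood higher with age in WT, at 25.8 ± 4.16 against 8.91 ± 0.96 CPM (SD, n = 6 each). At day 10 dKO ranged from 7.39 to 14.0 CPM, with 2 of 5 libraries above all WT, and the difference of 0.26 ± 0.16 did not pass (edgeR, adjusted p = 0.366).

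Hif3a (chr7:17031507-17062427, - strand) encodes a hypoxia-inducible factor subunit of which some isoforms hold back the other subunits. It measured 63.1, 57.3 and 71.1 CPM in dKO females and 83.6, 83.7 and 76.1 CPM in dKO males at day 20. WT ranged from 9.85 to 18.0 CPM with a median of 14.2 CPM. The dKO males lay above the dKO females without overlap, and both far above WT, with a fitted difference of 2.36 ± 0.12, 5.13-fold. At day 10 dKO ranged from 4.01 to 8.09 CPM and WT from 5.20 to 7.26 CPM, a difference of -0.08 ± 0.15 (edgeR, adjusted p = 0.808). From day 10 to day 20 the mean went from 6.21 to 14.2 CPM in WT and from 5.70 to 72.5 CPM in dKO.

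Klf9 (chr19:23141226-23168134, + strand), a Krüppel-like transcription factor that glucocorticoids and thyroid hormone induce, was the exception at day 20. It measured 159, 163 and 161 CPM in dKO females and 173, 170 and 183 CPM in dKO males, against 150, 161 and 148 CPM in WT females and 136, 133 and 137 CPM in WT males. The females of the genotypes overlapped and the males did not, and over both sexes the difference was 0.22 ± 0.14, 1.17-fold. At day 10 Klf9 was lower on average in dKO, at 90.4 ± 25.4 CPM (SD, n = 5) against 121 ± 21.8 CPM (SD, n = 6), a difference of -0.40 ± 0.15 that did not pass (edgeR, adjusted p = 0.115). DESeq2 called it, as did edgeR without dKO female replicate 1, without dKO male replicate 1 or without WT male replicate 3 of day 10. With only the day 20 groups in the fit, its day 20 difference also came under the threshold.

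Sgk1 (chr10:21882184-21999903, + strand) encodes a serum- and glucocorticoid-regulated kinase that acts on ion channels and transporters. It measured 369, 290 and 292 CPM in dKO females and 323, 315 and 359 CPM in dKO males at day 20, and WT ranged from 96.8 to 152 CPM with a median of 118 CPM. The lowest dKO library stood at 1.90 times the highest WT library, and the fitted difference was 1.44 ± 0.10, 2.71-fold. At day 10 dKO ranged from 43.4 to 58.3 CPM and WT from 51.5 to 62.1 CPM, a difference of -0.18 ± 0.11 (edgeR, adjusted p = 0.360). Per length of exon, Sgk1 was the fourth of the 10 genes in WT at day 20, at 24.5 ± 4.20 RPKM (CPM per 1 kb of merged exons), and the highest in dKO, at 66.2 ± 6.75 RPKM (SD, n = 6 each).

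Map3k6 (chr4:133240818-133252929, + strand), a kinase at the head of stress-activated MAP kinase cascades, had the lowest level of the 10 per length and the largest fold. It measured 21.4, 12.1 and 12.1 CPM in dKO females and 30.6, 23.0 and 19.5 CPM in dKO males at day 20. WT ranged from 2.63 to 3.37 CPM with a median of 2.87 CPM. No other member varied as much between the dKO libraries of day 20, with a coefficient of variation of 35.6%, yet the lowest stood at 3.59 times the highest WT library, and the fitted difference was 2.72 ± 0.15, 6.57-fold. At day 10 dKO ranged from 1.51 to 2.65 CPM and WT from 1.54 to 2.06 CPM, on 20 to 77 counts per library in WT and 27 to 47 in dKO, with a difference of 0.22 ± 0.20 (edgeR, adjusted p = 0.544).

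Ddit4 and Errfi1 restrain growth signalling: Ddit4 (chr10:59949669-59951834, - strand), also called REDD1, inhibits mTORC1, and Errfi1 (chr4:150853919-150868892, + strand), also called MIG6, inhibits the EGF receptor family. Ddit4 measured 107, 82.8 and 72.9 CPM in dKO females and 85.0, 99.8 and 106 CPM in dKO males at day 20, and WT ranged from 34.9 to 51.0 CPM with a median of 42.8 CPM. The groups did not overlap, and the fitted difference was 1.09 ± 0.10, 2.13-fold. Its WT level was 45.8 ± 2.08 CPM at day 10 and 43.3 ± 5.78 CPM at day 20 (SD, n = 6 each), so that, as for Fkbp5, only the dKO level stood higher at day 20. Errfi1 measured 54.4, 46.8 and 49.2 CPM in dKO females and 56.9, 51.3 and 58.9 CPM in dKO males, and WT ranged from 37.8 to 46.8 CPM with a median of 42.6 CPM. Its lowest dKO library stood at 1.0001 times the highest WT library, so the groups met without overlapping, and the fitted difference was 0.32 ± 0.06, 1.25-fold, beside a rise with age in WT of 0.78 ± 0.06. At day 10 the differences were -0.09 ± 0.11 for Ddit4 (edgeR, adjusted p = 0.683) and 0.00099 ± 0.07 for Errfi1 (edgeR, adjusted p = 0.995).

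Sult1a1 (chr7:126672865-126676432, - strand), a sulfotransferase that conjugates phenols such as catecholamines, measured 31.1, 25.0 and 23.1 CPM in dKO females and 24.5, 27.9 and 21.6 CPM in dKO males at day 20. WT ranged from 6.69 to 10.3 CPM with a median of 7.61 CPM, and the fitted difference was 1.67 ± 0.13, 3.18-fold, with no overlap. It had the steepest course with age in WT of the 10, from 1.97 ± 0.64 to 8.03 ± 1.25 CPM (SD, n = 6 each). At day 10 the difference was 0.16 ± 0.18 (edgeR, adjusted p = 0.642), on 15 to 121 counts per library. Sult1a1 overlaps Sgf29 on the opposite strand, which measured 13.2 CPM in dKO and 12.6 CPM in WT at day 20. Counts on the strand opposite to Sult1a1 made up 13.3% of the counts on both strands together in dKO and 39.5% in WT at day 20. At day 10 they made up 61.2% in dKO and 62.7% in WT, so the strand setting matters for this gene. For the other 9 genes that share was 2.12% or less in dKO at day 20. For Map3k6 it was higher in every other group, at 16.1% in WT and 10.1% in dKO at day 10. For the genes other than Sult1a1 and Map3k6 it was 2.17% or less in every group.

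**Figure D2:**
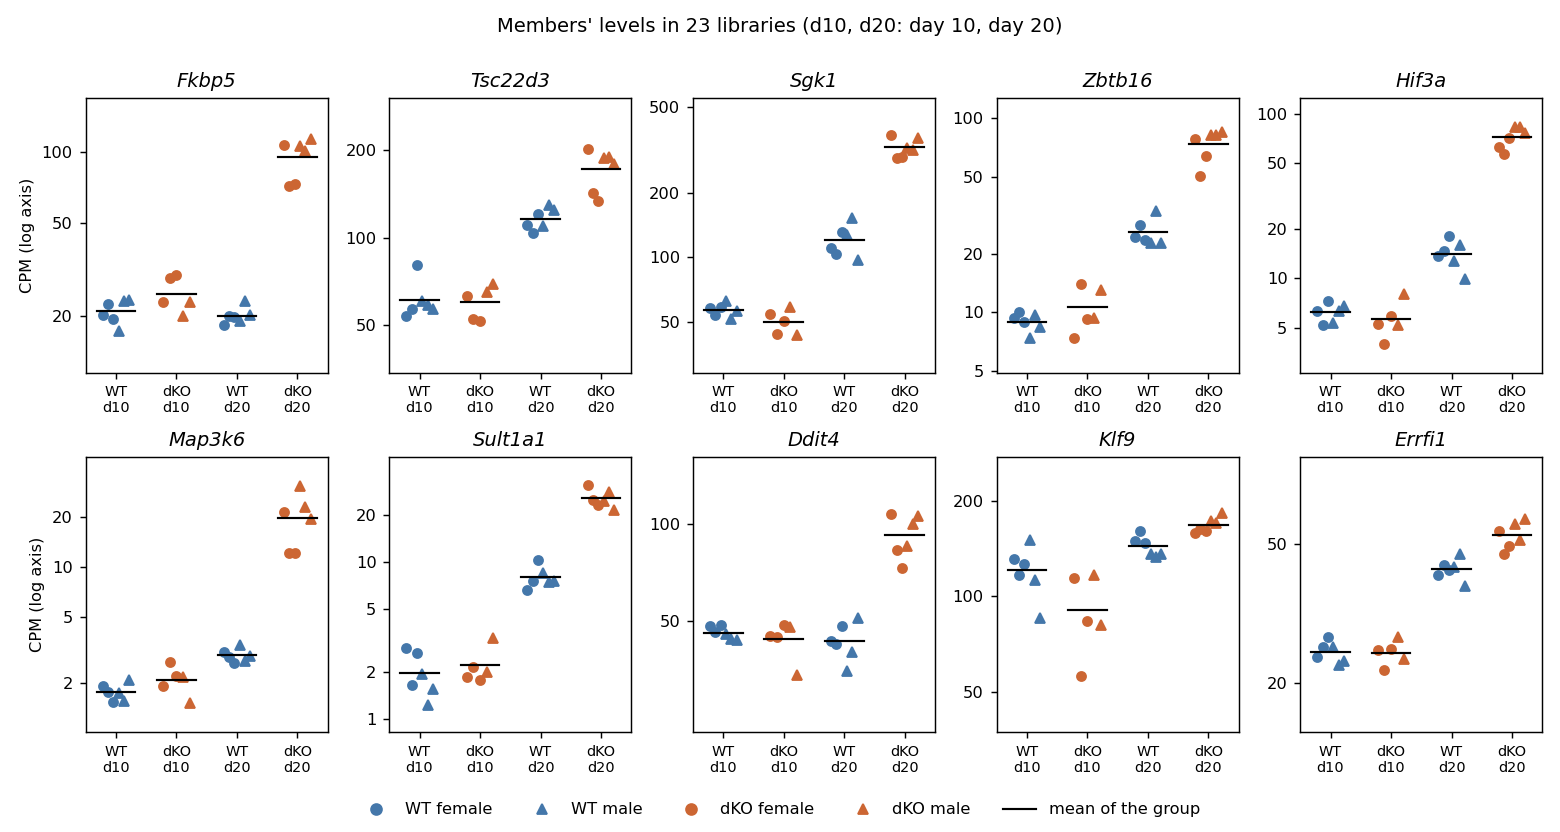
Levels of the 10 genes in 23 libraries, in CPM on a log axis, by genotype and day (blue WT, orange dKO; circles females, triangles males; black lines group means). For every gene except Klf9 the 6 dKO libraries of day 20 lie above the 6 WT libraries of that day, while at day 10 the genotypes overlap.

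Over the 10 genes, the median difference at day 20 was 1.47 (log2 dKO over WT), from 0.22 to 2.72, where the median over the 21657 genes tested was -0.0003. Of the 10, 9 came under an adjusted p of 0.05, each of them higher, as did 18.8% of all genes on the higher side and 19.2% on the lower side; every dKO library lay above every WT library for 9 of the 10 and for 9.79% of all genes. Since the genes were chosen on this difference, nothing is read from these shares. At day 10 0 of the 10 were called and 1 (Klf9) had an unadjusted p under 0.05, beside 4.99% of all genes called; DESeq2 called 1 and limma-voom 0. The median at day 10 was -0.0008, with 5 of the 10 differences above 0 and 5 below. The all-gene count at day 10, 1081, moved between 6 and 4516 over 31 alternative settings, and the members called moved between 0 and 1.

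**Figure D3:**
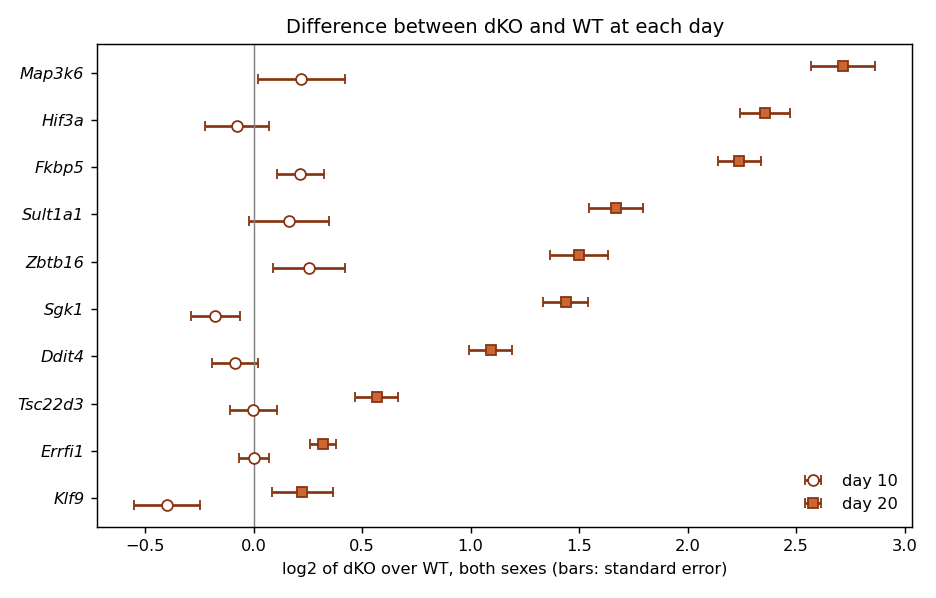
Fitted log2 difference between dKO and WT over both sexes for each of the 10 genes at day 10 (open circles) and day 20 (filled squares), with standard errors as bars. The day 10 values lie between -0.40 and 0.26, and the day 20 values between 0.22 and 2.72.

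The difference of the differences, day 20 minus day 10, was above 0 for all 10 genes, from 0.32 ± 0.09 (Errfi1) to 2.497 ± 0.25 (Map3k6), with 2.02 ± 0.15 for Fkbp5 and 2.43 ± 0.19 for Hif3a. All 10 came under the threshold, beside 13.6% of all genes; this comparison uses the day 20 libraries on which the genes were chosen. In WT, 7 of the 10 were higher at day 20 than at day 10, as were 25.5% of all genes, the exceptions being Fkbp5 (-0.06 ± 0.10), Ddit4 (-0.09 ± 0.10) and Klf9 (0.25 ± 0.14). In dKO all 10 were higher at day 20, as were 30.4% of all genes, from 0.87 ± 0.15 (Klf9) to 3.62 ± 0.14 (Hif3a). These comparisons share libraries with each other and with the comparison of the genotypes. Sult1a1, Zbtb16 and Hif3a thus combined a rise with age in WT (2.01 ± 0.15, 1.54 ± 0.14 and 1.18 ± 0.13) with a higher level in dKO, whereas Fkbp5 and Ddit4 stood higher in dKO at day 20 alone. Per length, Ddit4 and Klf9 led the 10 at day 10 in WT, at 26.1 ± 1.18 and 25.1 ± 4.53 RPKM, which do not differ beyond their spread. In dKO at day 20 Sgk1 (66.2 ± 6.75 RPKM) and Ddit4 (52.5 ± 7.91 RPKM) led, followed by Tsc22d3 (39.7 ± 6.33 RPKM) and Klf9 (34.9 ± 1.91 RPKM), and the ranges of mean ± SD of neighbours in that order overlapped.

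Sex made no difference that passed for any of the 10. At day 20 the dKO over WT difference was 4.33-fold in females and 5.14-fold in males for Fkbp5, 4.13-fold and 6.36-fold for Hif3a, and 5.35-fold and 8.07-fold for Map3k6. The interaction of genotype and sex at day 20 was 0.62 ± 0.23 for Hif3a (edgeR, adjusted p = 0.204) and 0.59 ± 0.29 for Map3k6 (edgeR, adjusted p = 0.353). With edgeR 0 of the 10 and 0% of all genes were called for it, with 1 of the 10 at an unadjusted p under 0.05; DESeq2 called 0 of the 10 and 347 genes in all, limma-voom 0 and 0, and edgeR with only the day 20 groups called Klf9 and 1182 genes. At day 10 the same interaction was greatest for Sult1a1 (1.07 ± 0.37, edgeR, adjusted p = 0.343), and 0 of the 10 and 0% of all genes were called, with 1 of the 10 at an unadjusted p under 0.05 and 0 by DESeq2 or limma-voom. Between WT males and females 0 of the 10 were called with edgeR, DESeq2 or limma-voom, with 1 at an unadjusted p under 0.05, beside 0.0693% of all genes.

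The 6 dKO libraries of day 20 were not alike. For 7 of the 10 genes (Fkbp5, Tsc22d3, Sgk1, Zbtb16, Map3k6, Ddit4 and Errfi1) the lowest 2 of the 6 were dKO female replicates 2 and 3. Replicate 3 was among the highest 3 libraries for 0 of the 10 and replicate 2 for 1, whereas dKO male replicate 3 was among them for 7. Of the 45 pairs of members, 42 were positively correlated over these libraries (median Pearson r = 0.60, log2 CPM), against 24 of 45 in WT at day 20, 25 of 45 in WT at day 10 and 22 of 45 in dKO at day 10. With Fkbp5 all 9 others had a positive r in dKO at day 20 (median 0.86, which 3.35% of all genes reached; 7 of 9 with values centred within sex, where Hif3a went from 0.55 to -0.13 and Klf9 from 0.60 to -0.03), 6 of 9 in WT at day 20 and 3 of 9 in WT at day 10. These are descriptions over 6 libraries that share a scaling.

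Since Fkbp5 fell into a pair of libraries at 72.1 and 73.3 CPM and 4 at 101 to 114 CPM, several of the relations in dKO rest on that split. Errfi1 had r = 0.91 with Fkbp5 (exact permutation p = 0.00278, adjusted p = 0.075 over 27 relations; Spearman rho 0.94, exact permutation p = 0.0167, adjusted p = 0.15), and r = 0.90 without the 2 libraries farthest from the median of Fkbp5. Tsc22d3 had r = 0.93 (exact permutation p = 0.0528, adjusted p = 0.178; rho 0.54, p = 0.297, adjusted p = 0.617), which became -0.45 without those 2. Map3k6 had r = 0.86 and then -0.46. By these exact permutation tests 0 of the 27 relations passed after adjustment, and 5 of the 9 in dKO at day 20 kept a positive sign without those 2 libraries. The other values of dKO female replicates 2 and 3 were 27.3 and 15.9 M gene counts, the highest and the lowest of the group. Their summed levels of 9 microglial markers were 143 and 142 CPM, against 92.3 to 124 CPM in the 4 other dKO libraries. Summed endothelial markers were 288 and 284 CPM against 230 to 255 CPM, and oligodendrocyte precursor markers 496 and 488 CPM against 325 to 436 CPM. Whether these levels bear on the members' spread was not tested.

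**Figure D4:**
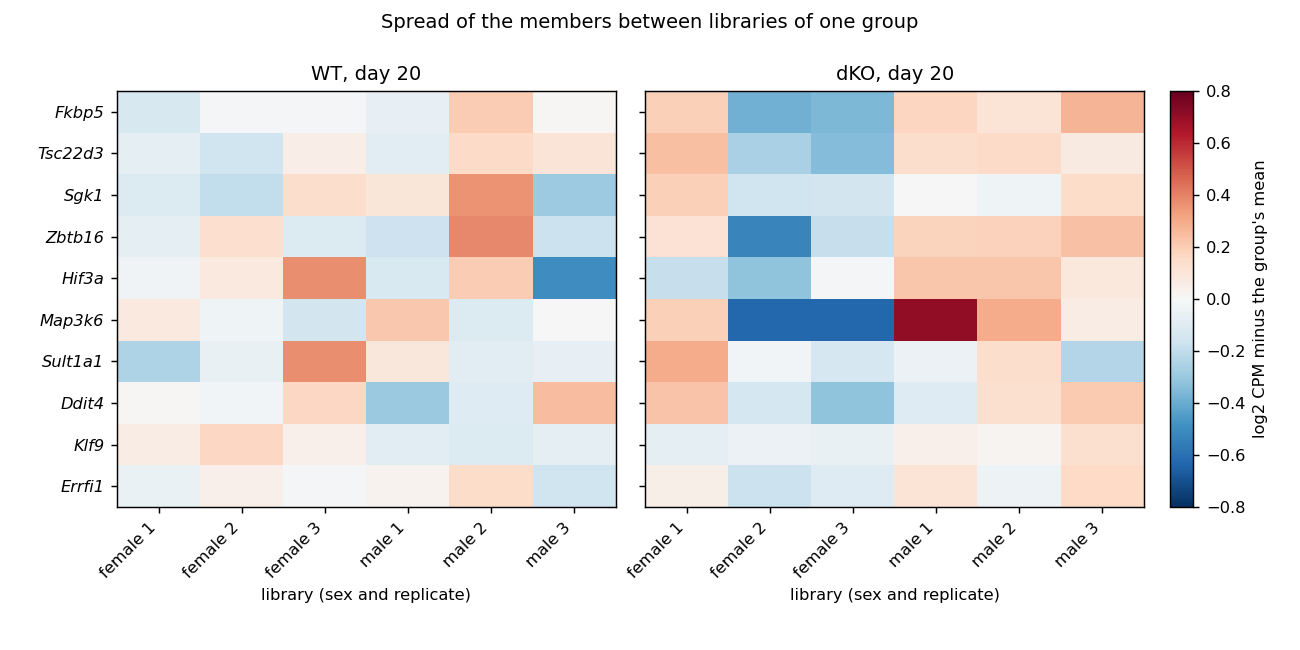
Log2 CPM of the 10 genes in each library of day 20, minus the mean of its genotype (red above, blue below), for WT (left) and dKO (right). In dKO, female replicates 2 and 3 are blue for most genes, and for Map3k6 most deeply, while WT shows no such column.

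A further list of 35 genes that glucocorticoids induce, none of them a member, was compared in the same way. Like the lists that follow, it was chosen with earlier results of these data known. Its counts are therefore a description and no separate evidence. At day 20 24 of the 35 were called higher in dKO and 0 lower (1 lower at an unadjusted p under 0.05; 1 with DESeq2 and 0 with limma-voom), with a median of 0.69, beside 18.8% of all genes called higher and a median of all genes of -0.0003. At day 10 0 of the 35 were called, with 2 higher and 7 lower at an unadjusted p under 0.05, a median of -0.16, and 2 called lower by DESeq2 and 3 by limma-voom. The summed level of the list ranged from 3067 to 3925 CPM in dKO and from 2041 to 2324 CPM in WT at day 20, without overlap, and from 825 to 1069 CPM and from 947 to 1187 CPM at day 10, with overlap. The 5 greatest rises among its genes at a mean of at least 1 CPM were Plin4, which coats lipid droplets, Lcn2, an iron-carrier binding protein of the acute phase, Arrdc2, an arrestin-domain protein, Pdk4, which shuts pyruvate dehydrogenase, and Angptl4, an inhibitor of lipoprotein lipase. Their differences at day 20 were 4.83 ± 0.34, 3.10 ± 0.38, 1.92 ± 0.15, 1.89 ± 0.25 and 1.78 ± 0.23. The difference of Plin4 depended on the processing. Over 31 alternative settings it ran from 2.71 to 5.02, under the threshold in each. Pdk4 went from 9.35 ± 2.20 CPM in WT to 34.5 ± 15.2 CPM in dKO and Arrdc2 from 11.8 ± 2.22 to 44.7 ± 12.1 CPM (SD, n = 6 each). Lcn2 lay near the floor in WT, at 0.37 ± 0.20 CPM against 3.32 ± 1.79 CPM in dKO (SD, n = 6 each). It reached a mean of 1 CPM only through dKO at day 20.

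The 5 lowest of the list were not called at day 20 in the main fit, though Gadd45g was called lower in 7 of 31 alternatives. Gadd45g, a stress-induced growth arrest gene, differed by -0.35 ± 0.14 (edgeR, adjusted p = 0.058), Cavin2, a coat protein of caveolae, by -0.13 ± 0.09 (adjusted p = 0.261), and Cdkn1c, a cell cycle inhibitor, by -0.09 ± 0.11. Rasd1, a Ras-like protein named for its induction by dexamethasone, differed by -0.07 ± 0.17 (edgeR, adjusted p = 0.774) and Litaf by -0.07 ± 0.10 (adjusted p = 0.652). Rasd1 measured 2.52 ± 0.45 CPM in WT and 2.37 ± 0.39 CPM in dKO (SD, n = 6 each). Glucocorticoid-induced genes thus ranged from a fitted -0.35 to 4.83 at day 20.

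**Figure D5:**
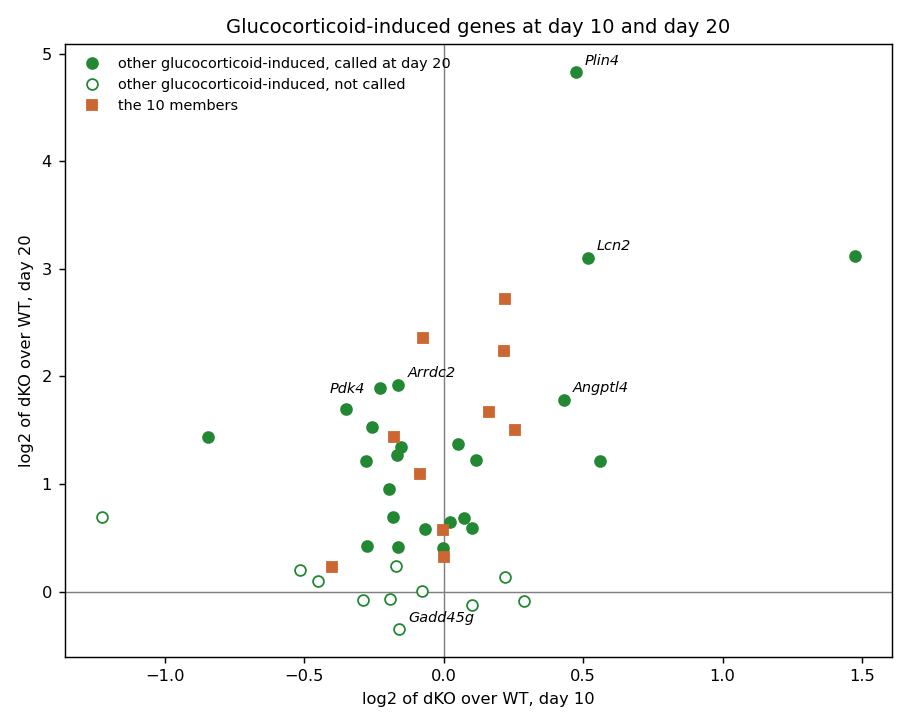
Fitted log2 difference between dKO and WT at day 10 (horizontal) and day 20 (vertical) for the 10 genes (orange squares) and 35 other glucocorticoid-induced genes (green, filled where called at day 20). Most points lie near 0 horizontally and above 0 vertically; 24 of the 35 are filled and Plin4 is the highest at 4.83.

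Genes that glucocorticoids repress gave fewer counts: of 11 listed 7 were tested, and at day 20 1 was called higher and 4 lower, with a median of -0.37. The shares over all genes were 18.8% higher and 19.2% lower. The list's summed level ranged from 26.4 to 39.6 CPM in dKO and from 46.6 to 50.4 CPM in WT. At day 10 0 of the 7 were called by edgeR, with 2 higher and 1 lower at an unadjusted p under 0.05, 1 higher and 1 lower by DESeq2 and 1 higher by limma-voom. Of the receptor's own machinery, 13 genes of receptors, steroid metabolism and chaperones, 1 was called higher and 7 lower at day 20 (median -0.28) and 1 higher at day 10. Nr3c1, the receptor itself, measured 97.3 ± 5.95 CPM in dKO and 136 ± 3.34 CPM in WT at day 20, a difference of -0.48 ± 0.05 (edgeR, adjusted p = 4.6e-07), and 95.3 against 101 CPM at day 10 (-0.08, adjusted p = 0.451). Fkbp4, the cochaperone that favours the receptor's transport and is exchanged for Fkbp5, fell by 0.55 on the log2 scale (standard error 0.05, edgeR, adjusted p = 7.6e-09), so that it and Fkbp5 moved in opposite directions. Nr3c2, the mineralocorticoid receptor, measured 37.3 ± 4.53 CPM in dKO and 38.1 ± 2.55 CPM in WT at day 20 (edgeR, adjusted p = 0.799). Hsd11b1, which regenerates active hormone within cells, measured 19.7 ± 0.88 CPM in dKO and 23.9 ± 1.93 CPM in WT (edgeR, adjusted p = 0.246). Hsd11b1 was lower in dKO under all 31 alternatives and came under the threshold in 1 of them.

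Of the nearest relatives of the 10, 15 family genes were tested. At day 20 3 were called higher and 5 lower, with a median of -0.003. Among all genes 18.8% were called higher and 19.2% lower, so the count of 3 lay near that share. Sgk3 went from 19.8 ± 1.84 CPM in WT to 64.4 ± 21.9 CPM in dKO (SD, n = 6 each; 1.69 ± 0.17, edgeR, adjusted p = 9.2e-07), while Sgk2 differed by -0.21 ± 0.18 (adjusted p = 0.401). Of the Tsc22 domain genes, Tsc22d4 rose by 0.32 ± 0.07 and Tsc22d1 and Tsc22d2 fell by 0.21 and 0.18. Hif1a and Epas1, the main hypoxia-inducible factors, differed by 0.03 ± 0.06 and 0.14 ± 0.07 (edgeR, adjusted p = 0.759 and 0.111) beside the 5.13-fold difference of Hif3a. Map3k15 rose by 0.60 ± 0.16 and Map3k5 differed by -0.003 ± 0.15 (edgeR, adjusted p = 0.991). Ddit4l, the relative of Ddit4, fell by 1.53 (standard error 0.25), and Sult4a1 fell by 0.24. Klf13 and Klf16 differed by 0.11 ± 0.12 and 0.01 ± 0.10 (edgeR, adjusted p = 0.486 and 0.957). At day 10 only Klf13 of these was called, lower by -0.49 in dKO (edgeR, adjusted p = 0.0388).

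Several members are also known from other responses, whose genes were counted beside them. For the day 20 counts, the shares over all genes were 18.8% called higher and 19.2% called lower. Of 16 genes of the hypoxia response, 2 were called higher and 8 lower at day 20 (median -0.14). The greatest differences there were P4ha1, a collagen hydroxylase (-1.06 ± 0.08), Kdm3a, a histone demethylase (0.61 ± 0.07), and Slc2a1, the glucose transporter of the blood-brain barrier (0.53 ± 0.09). Of 14 tested genes of the ATF4 and integrated stress response, to which Ddit4 also belongs, 2 were called higher and 6 lower (median -0.15), with -1.12 ± 0.09 for the cystine transporter Slc7a11, -0.58 ± 0.11 for Atf5 and 0.47 ± 0.08 for Ppp1r15a. Of 14 tested genes of the FoxO and fasting response, 9 were called higher and 1 lower (median 0.42), led by Txnip, which restrains glucose uptake (1.70 ± 0.12), Klf15 (1.01 ± 0.07) and Pik3ip1 (0.85 ± 0.08). Foxo1, Irs2, Txnip and Bcl6 of this list stand also on the further list of 35 glucocorticoid-induced genes, so the lists are not separate. Klf15 and Txnip are themselves known to respond to glucocorticoids. At day 10 these lists gave 2 higher and 0 lower, 0 of either (1 higher at an unadjusted p under 0.05; 0 by DESeq2 and limma-voom), and 0 higher and 1 lower. For the FoxO and fasting list the count of 1 lower at day 10 was 6 by DESeq2 and 3 by limma-voom, with 1 higher and 7 lower at an unadjusted p under 0.05 and a median of -0.26.

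Other genes followed the course of the 10 closely over the 23 libraries. By Pearson r with the mean of the members' standardised log2 CPM, the 6 nearest of 16937 genes were Agt (angiotensinogen, r = 0.991), Pnpla2 (a triglyceride lipase, 0.988), Lrrc8a (an anion channel subunit, 0.987), Arrdc2 (0.987), Aldh6a1 (an enzyme of valine breakdown, 0.985) and Mapk4 (0.985). These values span 4 groups of different level and are given as a description. Agt measured 120 ± 7.98 CPM in WT and 241 ± 17.7 CPM in dKO at day 20, and 72.2 ± 4.21 and 70.4 ± 10.4 CPM at day 10 (SD, n = 6, 6, 6 and 5). Pnpla2 and Arrdc2 stand also on the list of 35.

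Cell type markers moved between the genotypes at day 20, beside the members. Called lower in dKO were 8 of 9 microglial markers (median -0.85; Csf1r from 49.8 ± 4.41 to 35.7 ± 6.72 CPM), 7 of 9 endothelial, 5 of 8 mural (1 higher; Rgs5 -1.29 ± 0.08), 6 of 6 erythroid (median -2.60), 4 of 10 oligodendrocyte, 3 of 6 choroid plexus and 2 of 9 neuronal markers. Of all genes 19.2% were called lower and 18.8% higher, so the neuronal count lay near that share. Summed levels did not overlap for microglia (92.3 to 143 CPM in dKO, 162 to 194 CPM in WT), endothelium (230 to 288 against 318 to 333 CPM), mural cells (145 to 172 against 218 to 261 CPM) and erythroid cells (75.8 to 131 against 320 to 676 CPM), all lower in dKO. Those of oligodendrocytes (12368 to 15822 against 16030 to 20883 CPM) and neurons (3264 to 3797 against 3802 to 3922 CPM) were also lower without overlap, though the groups nearly met. Those of striatal neurons were higher in dKO without overlap. Of astrocyte markers 3 of 10 were called higher and 3 lower, and their summed levels overlapped (4788 to 5449 against 5258 to 5603 CPM). Of 6 oligodendrocyte precursor markers 1 was called higher and 1 lower, and of 6 striatal markers 2 higher and 1 lower. No marker of these lists was at 0 in every library. Their part in the members' differences was not tested.

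At day 10 libraries differed in markers of brain region. The summed level of 4 cerebellar Purkinje markers ranged from 441 to 1208 CPM in WT and from 211 to 732 CPM in dKO, that of 6 granule neuron markers from 974 to 2152 and from 308 to 1464 CPM, and that of 4 tested cortical and hippocampal markers and Emx1 from 8.83 to 13.4 and from 11.8 to 60.8 CPM. The highest of these dKO values is that of female replicate 2, and the 4 other dKO libraries reached 17.9 CPM at most. The lowest Purkinje and granule neuron sums in dKO, 211 and 308 CPM, are those of male replicate 2, where the 4 others held 331 to 732 and 904 to 1464 CPM. In that library the choroid plexus markers summed to 31.3 CPM against 385 to 627 CPM in the 4 others and 268 to 595 CPM in WT, and 5 markers of hindbrain position to 0.28 CPM against 15.9 to 53.6 and 1.89 to 27.9 CPM. Without it, or without dKO female replicate 2, 0 of the 10 members were called at day 10, as with both. None of the Purkinje, granule neuron and cortical markers was called at day 10 by edgeR, with 3, 3 and 3 at an unadjusted p under 0.05; DESeq2 called 1 of each list and limma-voom 3, 2 and 0. At day 20 0 of them were called by edgeR (1 granule neuron marker at an unadjusted p under 0.05, 0 by DESeq2 and 1 by limma-voom), and the summed levels overlapped. Of 10 oligodendrocyte markers 4 were called lower at day 10 by edgeR, 9 by DESeq2 and 8 by limma-voom, from 0 to 9 over 31 alternatives, and all 10 were lower at an unadjusted p under 0.05. Whether the region sampled bears on the day 10 values of the members was not tested.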

How the data were processed

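RNA was measured by TruSeq Stranded mRNA sequencing, and each of the 24 libraries has a table of unnormalised read counts by gene as deposited by the authors. STAR 2.5.2b, HTSeq and GRCm38.p5 are named in the submitters' processing notes; the annotation used for counting is not given in the sources used here. Each table holds 50686 genes and 4 lines that name no gene (41.7 to 47.5% of reads in no feature and 7.65 to 11.0% unmapped in the 23 libraries kept), which stayed out of totals. The reverse-strand counts (column 4) were taken; those of the forward strand came to 5.22 to 7.46% of them. Gene symbols and coordinates were taken from GENCODE M21 (GRCm38) (50462 identifiers matched, 224 did not), and promoter windows from RefSeq on GRCm38.p6.

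Libraries under 1 M gene counts were left out (1 of 24). Genes were kept by filterByExpr (21657), scaled by TMM and fitted with 1 mean for each of 8 groups of genotype, sex and day, with genotype contrasts averaged over the sexes, in R 4.3.3 with edgeR 4.0.16 (glmQLFit, robust, and glmQLFTest, two-sided). Calls are at a Benjamini-Hochberg adjusted p under 0.05 over all genes tested. CPM use TMM factors, RPKM divide CPM by merged exon length, and log2 CPM for correlations used a prior count of 2. Correlations with Fkbp5 were tested by exact permutation (720 orders, two-sided) and adjusted over 27 relations. The fit was tested on simulated data. Intervals and limits set by depth cover counting error only.

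The members and all gene lists were chosen with earlier results of these data known. The genes named are the 10 members, the 5 highest and 5 lowest of the further list at a mean of at least 1 CPM, Nr3c1, Nr3c2, Hsd11b1 and Fkbp4, every family gene at that level, the 3 greatest differences of the hypoxia, ATF4 and FoxO lists, the 6 nearest genes by r and the 2 highest markers of lists whose summed levels did not overlap; of the last some are not given. The alternatives tried were the unstranded column, no filter, RLE size factors, a floor of 1 CPM on the mean, limma-voom (limma 3.58.1), DESeq2 1.42.0, a fit to the compared groups alone, all 24 libraries, and each library left out in turn.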

Additional observations from a re-analysis of the deposited data

Results flagged for a closer look

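For all 10 genes the difference between dKO and WT was greater at day 20 than at day 10, under the threshold in the edgeR fit of that difference. On the log2 scale the difference of differences was 2.02 for Fkbp5, 0.57 for Tsc22d3, 1.62 for Sgk1, 1.25 for Zbtb16, 2.43 for Hif3a, 2.497 for Map3k6, 1.51 for Sult1a1, 1.18 for Ddit4, 0.62 for Klf9 and 0.32 for Errfi1. The genes were chosen with the day 20 difference known, so these values describe them and add no separate evidence. For Klf9 the value combines a lower dKO level at day 10 with a slightly higher one at day 20.

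In 3 of 40 groups (10 genes by genotype and day) 1 library lay far from the others by the gap between neighbours over the whole range, against limits (Dixon's critical values) set so that about 1 in 20 groups passes by chance; the groups of different genes share libraries. Tsc22d3 measured 80.6 CPM in WT female replicate 3 of day 10, against 53.7 to 60.5 CPM in the 5 other WT libraries of that day. In dKO male replicate 2 of day 10, Sult1a1 measured 3.29 CPM against 1.76 to 2.14 CPM, and Ddit4 33.8 CPM against 44.4 to 48.3 CPM, in the 4 others. That dKO library was also the lowest of its group in markers of granule neurons (308 against 904 to 1464 CPM), choroid plexus (31.3 against 385 to 627 CPM) and hindbrain position (0.28 against 15.9 to 53.6 CPM), and that WT library the highest in oligodendrocyte markers (12450 against 6101 to 8156 CPM). The part of these levels in the values was not tested. All 3 groups concern day 10, where none of the members was called; without that dKO library the day 10 difference of Sult1a1 became -0.0586 and that of Ddit4 0.0133, and without that WT library the difference of Tsc22d3 became 0.1018.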

How the results depend on the processing

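At day 20 all 10 members kept their direction under all 31 alternatives, and 9 of them came under the threshold in each; Klf9 joined them with only the groups compared in the fit. Without 1 library at a time the count was 9 at day 20, 9 to 10 for genotype by day (Klf9 was lost without dKO male replicate 2, WT female replicate 1 or WT male replicate 1 of day 10, and with no filter), 7 to 8 for WT with age and 10 for dKO with age. At day 10 the count of 0 became 1 (Klf9) with DESeq2 and was 0 to 1 without 1 library. For genotype by sex it became 1 (Klf9) at day 20 with only the groups compared, and was 0 to 1 at day 10 without 1 library (Sult1a1, without dKO male replicate 1). Of the correlations with Fkbp5 1 passed on the unstranded counts and 1 with values centred within sex, where 7 of 9 in dKO at day 20 were positive. The cause of these changes was not tested.

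The differences near 0 changed sign. At day 10 Tsc22d3 became 0.0039 with a mean of at least 1 CPM, 0.0056 unstranded and 0.0109 with all 24 libraries. Errfi1 became -0.0047 with RLE, -0.0199 with no filter, -0.0050 with DESeq2, -0.0032 with limma-voom, -0.0037 with all 24 libraries and -0.0053 with only the groups compared. At day 20 Hif1a became -0.0031 unstranded, Map3k5 0.0016 with RLE, 0.0041 with a mean of at least 1 CPM and 0.0040 with DESeq2, and Klf16 -0.0037 with no filter. Without 1 library at a time the day 10 differences ran from -0.0586 to 0.1018 for Tsc22d3, -0.2678 to 0.0661 for Hif3a, -0.0586 to 0.3114 for Sult1a1, -0.2232 to 0.0133 for Ddit4 and -0.0586 to 0.0377 for Errfi1, and the day 20 differences from -0.162 to 0.0250 for Rasd1, -0.0705 to 0.0590 for Map3k5 and -0.0416 to 0.0598 for Klf16.

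The count of all genes called at day 10 was 1081 and became 2105 with DESeq2, 1855 with limma-voom, 6 with only the groups compared, 72 without dKO female replicate 2, 15 without dKO male replicate 2 and 4516 without dKO male replicate 1. The last 4 fits held fewer libraries than the main fit, and the count moved both down and up among them. The cause of these changes was not tested. No paired analysis was possible because the labels give no replicate numbers; those used here follow the order of deposit within a group and only name libraries. At the depth of day 10, Map3k6 and Sult1a1 rest on 15 to 121 counts per library, so that small differences of these genes could not be seen.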
